A study of Mus musculus with 38 samples.

Results

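Distal H3K4me3 regions were taken here as stretches of the genome that carried H3K4me3 in IκBα-WT mouse embryonic stem cells (mESCs), lay more than 5000 bp from every annotated transcription start site (TSS), were narrower than 2000 bp and did not overlap H3K27me3. Stretches called in at least 2 of the 3 WT H3K4me3 peak lists numbered 21921 on chromosomes 1 to 19, and 967 of them met these limits. The H3K4me3 calls of the WT libraries therefore chose the regions, and their WT folds and widths are given as a description only. Of the other stretches, 19366 were narrower than 2000 bp but lay within 5000 bp of a TSS, 823 were distal but overlapped the WT consensus of H3K27me3, and 765 were 2000 bp or wider. Only 3 stretches that were distal and free of H3K27me3 were left out for their width. The regions just inside and just outside the distance limit lay 5008 bp and 4995 bp from a TSS (nearest protein-coding genes Cep19 and Nanos3), and the widest region inside and the narrowest outside the width limit spanned 1882 bp and 2001 bp (Trim27 and Tcf15).

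The libraries came from ES-E14TG2a mESCs grown in serum and LIF and collected at the 0 h time point. IκBα-KO cells had been edited with 2 guide RNAs against the first coding exon of Nfkbia, the gene of IκBα, and sorted as single cells, whereas IκBα-WT clones had received a non-targeting guide. Each genotype was represented by 3 independent clones for each of 5 histone modifications (H3K4me3, H3K27me3, H3K9me3, H3K27ac and H3K4me1). Each genotype had 1 input per experiment, which its 3 clones shared, so a difference between inputs and a difference between genotypes cannot be told apart. At the promoter of Nfkbia the H3K4me3 fold over input was 13.1, 10.3 and 13.8 in the WT libraries and 3.70, 5.21 and 5.02 in the KO libraries, lower in each KO library than in any WT library. Of 8 mESC marker genes, 7 carried a promoter H3K4me3 call in all 6 libraries, the exception being Dppa5a with 1 KO call, and all 8 carried H3K27ac. Of 5 fibroblast genes, Col1a1 and Thy1 were called in all 6 lists of both modifications, whereas Col1a2, Col3a1 and Postn had no H3K4me3 call.

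Trimethylation of lysine 4 on histone H3 is best known as a mark of active promoters and of CpG islands, where enzymes of the SET1 and MLL families deposit it. Active enhancers typically carry H3K4me1 and H3K27ac with much less H3K4me3, and H3K9me3 marks constitutive heterochromatin and many zinc finger gene clusters. H3K4me3 far from annotated starts can mark strong enhancers, unannotated promoters or genes read by RNA polymerase III, such as those for transfer RNAs (tRNAs).

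Sequence windows from distal regions are shown first, because base composition and neighbouring tRNA genes vary among the regions and recur in the results. All windows are 300 bp of the plus strand of GRCm38. The first 5 are centred on the region named by its nearest protein-coding gene, with every CG dinucleotide in capitals. They are the region of the highest mean WT fold (Adgrl1, chr8:83875006-83875305), 2 regions that no KO list called (Klf4, chr4:55480308-55480607, and Fzd2, chr11:102633207-102633506) and 2 regions that also carried H3K9me3 (Foxk1, chr5:142367611-142367910, and Zfp869, chr8:69716456-69716755).
Adgrl1: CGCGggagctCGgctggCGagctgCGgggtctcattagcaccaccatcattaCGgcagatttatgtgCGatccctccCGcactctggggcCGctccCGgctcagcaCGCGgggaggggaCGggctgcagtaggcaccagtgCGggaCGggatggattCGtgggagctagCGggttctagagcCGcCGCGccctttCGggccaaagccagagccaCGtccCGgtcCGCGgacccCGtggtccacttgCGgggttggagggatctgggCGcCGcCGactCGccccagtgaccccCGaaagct
Klf4: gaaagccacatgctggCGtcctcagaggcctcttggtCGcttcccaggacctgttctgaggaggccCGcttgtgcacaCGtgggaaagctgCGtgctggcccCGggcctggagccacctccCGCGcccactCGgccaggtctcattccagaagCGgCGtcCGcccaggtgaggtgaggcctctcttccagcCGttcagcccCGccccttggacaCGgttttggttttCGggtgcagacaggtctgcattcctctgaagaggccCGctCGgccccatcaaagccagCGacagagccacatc
Fzd2: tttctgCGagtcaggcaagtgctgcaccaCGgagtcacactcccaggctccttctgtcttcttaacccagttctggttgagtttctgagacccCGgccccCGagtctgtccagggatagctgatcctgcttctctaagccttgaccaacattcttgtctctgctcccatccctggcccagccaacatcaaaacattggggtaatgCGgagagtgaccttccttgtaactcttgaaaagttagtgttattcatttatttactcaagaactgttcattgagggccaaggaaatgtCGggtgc
Foxk1: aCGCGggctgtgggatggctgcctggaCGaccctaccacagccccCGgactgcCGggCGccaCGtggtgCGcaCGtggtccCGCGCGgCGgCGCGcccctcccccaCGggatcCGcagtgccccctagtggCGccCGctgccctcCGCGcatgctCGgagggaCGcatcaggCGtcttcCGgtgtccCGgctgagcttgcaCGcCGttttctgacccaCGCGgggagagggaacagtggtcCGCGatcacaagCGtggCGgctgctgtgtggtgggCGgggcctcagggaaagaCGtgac
Zfp869: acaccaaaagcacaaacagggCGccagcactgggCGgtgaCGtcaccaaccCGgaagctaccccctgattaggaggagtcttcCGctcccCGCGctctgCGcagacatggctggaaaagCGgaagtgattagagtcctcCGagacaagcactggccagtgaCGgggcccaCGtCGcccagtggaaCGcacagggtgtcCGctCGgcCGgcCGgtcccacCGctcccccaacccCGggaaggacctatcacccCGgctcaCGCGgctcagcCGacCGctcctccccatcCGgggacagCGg

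The next 3 windows are centred on the tRNA gene that lay in or next to a region of high fold, with the tRNA gene in capitals. Their genes encode tRNAs for leucine (n-TLcaa1, near Trim27, chr13:21200106-21200405), glutamate (n-TEttc6, near Nufip1, chr14:76152660-76152959) and isoleucine (n-TIaat17, near Haao, chr17:83861840-83862139). The annotations of these tRNA genes are those of RefSeq, and the gene lies on the printed strand in each case.
n-TLcaa1: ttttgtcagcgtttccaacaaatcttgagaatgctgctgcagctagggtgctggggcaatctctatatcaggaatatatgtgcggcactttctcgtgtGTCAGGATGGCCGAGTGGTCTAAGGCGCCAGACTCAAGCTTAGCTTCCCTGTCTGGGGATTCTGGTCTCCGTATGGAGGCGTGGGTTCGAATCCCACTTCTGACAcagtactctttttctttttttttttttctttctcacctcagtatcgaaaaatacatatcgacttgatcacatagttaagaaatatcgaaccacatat
n-TEttc6: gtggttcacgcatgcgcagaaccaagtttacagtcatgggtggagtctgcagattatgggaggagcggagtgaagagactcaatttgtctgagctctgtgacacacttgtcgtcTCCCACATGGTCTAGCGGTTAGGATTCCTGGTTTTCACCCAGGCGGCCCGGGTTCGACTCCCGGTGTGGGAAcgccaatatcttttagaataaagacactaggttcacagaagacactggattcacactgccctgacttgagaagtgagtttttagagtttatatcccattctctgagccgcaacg
n-TIaat17: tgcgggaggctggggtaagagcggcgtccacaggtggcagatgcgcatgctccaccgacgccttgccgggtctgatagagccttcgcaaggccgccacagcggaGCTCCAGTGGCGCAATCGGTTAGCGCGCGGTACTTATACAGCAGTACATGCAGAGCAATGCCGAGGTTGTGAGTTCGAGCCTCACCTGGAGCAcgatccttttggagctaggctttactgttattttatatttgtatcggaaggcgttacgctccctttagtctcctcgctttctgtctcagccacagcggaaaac

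Distal regions were small. Their median width was 332 bp (interquartile range 235 to 505.5 bp), against 737 bp for promoter-proximal regions, defined here as 11339 H3K4me3 stretches under 2000 bp within 5000 bp of a TSS and without H3K27me3. The narrowest spanned 3 bp, and 186 were narrower than 225 bp, the narrowest peak of any single list, since a region holds only the bases that WT lists shared. Their fold, which is the ChIP over input enrichment at the highest point of the peak averaged over the WT libraries that called it, had a median of 5.27 (interquartile range 4.60 to 6.23), against 8.87 at promoter-proximal regions. In the plot of width against fold the wider regions had the higher folds. All 3 WT lists called 501 of the regions and 2 lists called the other 466. Neighbouring regions often belonged together: 329 had another H3K4me3 stretch within 1000 bp, and joining regions within 12500 bp of each other gave 728 clusters, of which 570 held 1 region and 50 held at least 3. The largest cluster held 7 regions beside Pced1b on chromosome 15.

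**Figure D1:**
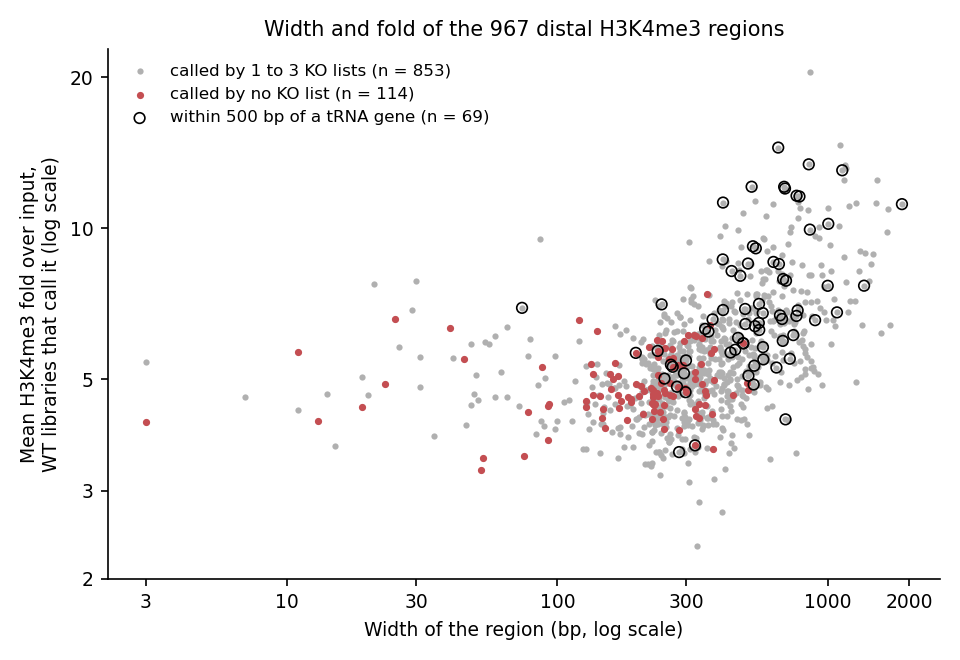
Each point is 1 of the 967 distal H3K4me3 regions, by width (bp, log scale) and by mean H3K4me3 fold over input in the WT libraries that call it (log scale). The 114 regions called by no KO list (red) lie at low fold and low width, with medians of 4.72 and 228.5 bp, and the 69 regions near a tRNA gene (circles) lie at higher fold and width, with medians of 6.59 and 538.0 bp.

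Of the 967 regions, 501 (51.8%) were intergenic, 314 (32.5%) intronic and 152 (15.7%) overlapped an exon, whereas 75.5% of promoter-proximal regions overlapped an exon. The median distance to any TSS was 10858 bp and the largest was 133418 bp. The annotation used for the distance, GENCODE M21, does not list every start: RefSeq placed a transcript start within 1000 bp of 156 regions (16.1%) and within 5000 bp of 234 (24.2%). Of the regions with a RefSeq start within 1000 bp, 72 were near a tRNA and 68 near a predicted transcript. RefSeq lists an enhancer at 30 regions (3.10%), against 0.141% of promoter-proximal regions.

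The 8 regions of the highest mean WT fold lay beside 7 protein-coding genes, and every KO library called all 8. The highest was at chr8:83874727-83875585, 23916 bp from the nearest TSS and closest to Adgrl1, an adhesion G protein-coupled receptor. Its fold was 19.03, 16.29 and 26.04 in the WT libraries and 18.4, 16.2 and 19.9 in the KO libraries, so the genotypes overlapped. A second region beside Adgrl1, at chr8:83875660-83876813, fell within the same KO peaks and the same peak of WT replicate 3. Its WT folds were 9.76, 4.32 and 26.04, the widest spread between WT libraries among these 8. Both regions lie in a stretch of chromosome 8 where KO input reads were raised relative to WT input by a median of 0.51 on the log2 scale.

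Regions beside Gramd1b, a sterol transfer protein, and Gab1, an adaptor of receptor tyrosine kinases, were intronic. The Gramd1b region (chr9:40414075-40415246) had folds of 10.9, 16.3 and 12.3 in WT and 11.1, 15.5 and 17.2 in KO. The Gab1 region (chr8:80858796-80859945) had folds of 11.8, 12.3 and 13.3 in WT and 8.55, 10.8 and 12.9 in KO. Beside Smad7, an inhibitory SMAD of TGF-β signalling, a region 23545 bp from the nearest TSS had folds of 17.0, 14.6 and 12.5 in WT and 12.3, 13.8 and 11.9 in KO. WT and KO values overlapped in all of these.

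The other 3 of the 8 lay at tRNA genes. The Trim27 region (chr13:21200287-21200942) overlaps the leucine tRNA gene printed above and had folds of 12.6, 13.4 and 17.5 in WT and 9.50, 8.66 and 6.78 in KO, so that every KO library was below every WT library. The Nufip1 region (chr14:76151887-76152737), with its tRNA gene outside it, had folds of 8.33, 14.2 and 17.7 in WT and 9.56, 13.7 and 10.9 in KO. The Haao region (chr17:83861337-83862468), which contains its tRNA gene, had folds of 12.97, 11.87 and 14.31 in WT and 12.1, 11.3 and 15.6 in KO. Only the Trim27 region separated the genotypes among these 3, and its WT values had entered the choice. A second region within 500 bp of the same leucine tRNA gene, chr13:21199786-21200195, had folds of 7.55, 8.75 and 17.5 in WT and 4.31, 3.06 and 3.35 in KO.

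Among the 4 widest regions, 2 also stood near the top by fold. The widest, 1882 bp at chr13:21168228-21170109, was again closest to Trim27, held 4 tRNA genes within 500 bp and had folds of 14.3, 7.12 and 12.1 in WT and 8.21, 4.84 and 11.4 in KO. The Foxk1 region (chr5:142366929-142368593), beside a forkhead transcription factor gene, had folds of 10.1, 10.8 and 11.9 in WT and 10.3, 8.98 and 11.0 in KO. The region beside Rab12, a small GTPase gene, had folds of 9.06, 10.7 and 9.73 in WT and 12.9, 12.7 and 11.3 in KO, each KO value above each WT value. The region beside Ptma, which encodes prothymosin alpha, had folds of 4.43, 7.47 and 7.37 in WT and 8.85, 9.17 and 6.87 in KO.

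Genes of tRNAs, which RNA polymerase III transcribes, stood beside a number of distal regions. Nearness to them took no part in the choice of regions and was looked for after the data had been seen. A RefSeq tRNA gene lay within 500 bp of 69 distal regions (7.14%), against 0.917% of promoter-proximal and 2.07% of H3K27me3-marked distal regions. The share was higher at higher fold, from 7.14% of all regions to 24.0% of the 100 highest and 40.0% of the 25 highest. These 69 regions covered the neighbourhood of 67 of the 386 autosomal tRNA genes (17.4%), whereas the more numerous promoter-proximal regions covered that of 114 (29.5%). The tRNA gene itself usually stood beside the region rather than in it: it was wholly inside 5 regions, partly inside 8 and outside 56, there at a median gap of 56.5 bp.

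The regions near tRNA genes were wider than the other 898, with medians of 538.0 and 319.5 bp, and 66 of 69 were intergenic. Chromosome 13 held 33 of them in 1 span, chr13:21160879-23506965, in which 38 distal regions lay in all. In the WT consensus H3K27ac overlapped 68 of the 69 (98.6%, against 95.9% of the others), H3K4me1 60 (87.0%, against 97.4% of the others) and H3K9me3 none. Their windows had a lower GC share than those of the others (medians 48.7% and 54.3%) but a higher ratio of observed to expected CpG (0.636 and 0.407). KO lists called 69.6%, 78.3% and 89.9% of them and 70.3%, 77.4% and 77.4% of the others.

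Folds near tRNA genes differed little between genotypes. Over the 43 such regions called by all 6 lists the median fold was 7.31, 7.12 and 8.14 in the WT libraries and 7.29, 7.16 and 8.03 in the KO libraries. Over the other 347 regions called by all 6 lists it was 5.82, 5.63 and 6.47 in WT and 6.59, 6.88 and 7.03 in KO, each KO median above each WT median. Without the split by tRNA genes the medians overlapped. Over all 390 distal regions they were 5.98, 5.74 and 6.79 in WT and 6.67, 6.94 and 7.04 in KO. At 9006 promoter-proximal regions they also overlapped, at 9.81, 9.01 and 10.9 in WT and 10.4, 11.2 and 11.5 in KO. Every KO library was above every WT library at 4 of the 43 regions (9.30%) and at 84 of the 347 (24.2%), against 21.5% of all 16059 stretches called by all 6 lists. Every KO library was below every WT library at 4 (9.30%) and at 26 (7.49%), against 12.7%. The shares at promoter-proximal regions were 25.0% above and 11.8% below. Regions near tRNA genes with higher folds in KO included 1 beside Shf on chromosome 2, with folds of 9.06, 8.81 and 6.79 in WT and 13.6, 11.9 and 12.4 in KO. These counts are descriptions, because the WT folds had entered the choice.

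**Figure D2:**
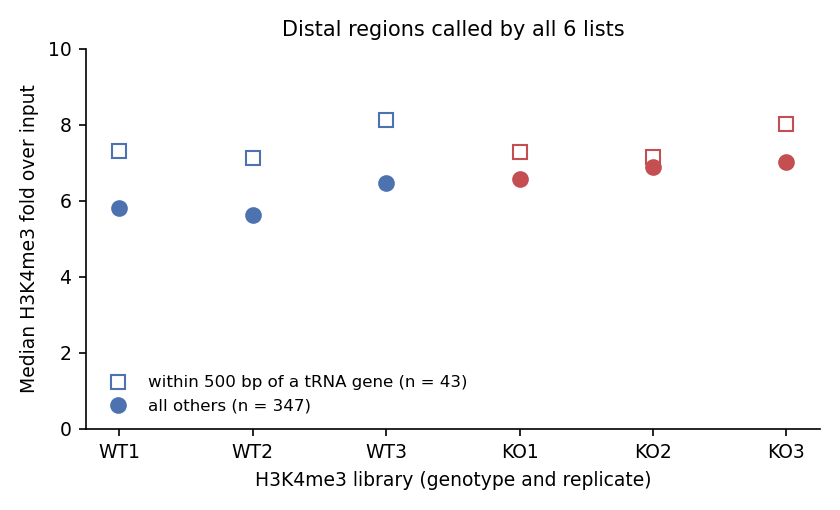
Median H3K4me3 fold over input (y axis) in each of the 6 H3K4me3 libraries (x axis) over distal regions that all 6 lists call, for 43 regions within 500 bp of a tRNA gene (open squares) and 347 others (filled circles). Near tRNA genes WT and KO medians overlap (7.12 to 8.14 and 7.16 to 8.03), whereas for the others the KO medians (6.59 to 7.03) lie above the WT medians (5.63 to 6.47). Over all 390 regions together (not drawn) they overlap, at 5.74 to 6.79 in WT and 6.67 to 7.04 in KO.

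The base composition of distal regions lay below that of other H3K4me3 stretches. The 300 bp windows around their centres had a median GC share of 54.0% and a median observed to expected CpG ratio of 0.425, whereas the windows of all 20189 other stretches under 2000 bp had medians of 62.0% and 0.690. Windows of CpG island composition, with a GC share of at least 55% and a ratio of at least 0.65, made up 101 distal regions (10.4%) and 49.9% of the others. The Adgrl1 window above is an example with 32 CG dinucleotides, a GC share of 69.0% and a ratio of 0.898, and the Foxk1 window holds 36. The Fzd2 window is closer to the typical distal region, with 6 CG dinucleotides, a GC share of 50.0% and a ratio of 0.324. At least 50% of the window was repeat sequence in 27 regions (2.79%), against 0.793% of the others. Windows alike over at least 200 bp at 80% identity or more were rare, with 2 pairs among the 967.

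Fixed motifs were searched on both strands of the same windows, and their shares were not tested. The octamer ATGCAAAT bound by Oct factors was in 1.14% of distal windows and 0.743% of the others, and the Esrrb motif TCAAGGTCA in 1.03% and 0.451%. The KLF motif GGGNGTGG was in 13.9% and 15.7%, the CTCF core motif in 1.55% and 2.08% and the NF-κB motif in 2.28% and 1.54%. At least 1 of these motifs was in 19.1% of distal windows and 19.6% of the others.

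Nearly all distal regions lay in domains of both enhancer-type marks. The labels of the H3K27ac libraries name the antibody that they give for H3K4me1, while a different one appears in the methods, and every H3K27ac value here rests on the modification as labelled. H3K27ac calls overlapped 95.0%, 95.8% and 96.4% of them in the WT libraries, although the WT consensus of H3K27ac covered 15.2% of the autosomes. H3K4me1 calls overlapped 96.4%, 96.5% and 96.7%, with 19.4% of the autosomes covered. In the WT consensus 900 regions (93.1%) carried both marks, 29 H3K27ac alone, 35 H3K4me1 alone and 3 neither, and these last 3 carried H3K9me3. Promoter-proximal regions carried both marks as often, at 10564 of 11339 (93.2%), so this was not particular to distal regions. The domains were much larger than the regions inside them, with a median width of 16400 to 18300 bp for H3K27ac and 18800 to 19600 bp for H3K4me1 in the WT libraries, so that a call places a region within a domain and not at its own summit.

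Compared within each library, the distal regions differed from promoter-proximal ones in both marks. Their share with H3K27ac differed by -2.43 ± 0.52 percentage points (SD over 6 libraries, lower in 6 of 6), and their share with H3K4me1 was higher by 3.64 ± 1.35 points (higher in 6 of 6). Both differences had an exact sign-flip permutation p of 0.03125, the smallest that 6 libraries allow, and a Benjamini-Hochberg adjusted p of 0.0375 over 6 such comparisons. Counted by bases the H3K4me1 contrast was larger: calls covered 93.3% to 94.0% of the bases of a distal region on average in WT and 88.5% to 89.3% in KO, but 67.8% to 68.2% and 52.9% to 54.3% at promoter-proximal regions. When a call had to cover at least 50% of a region, the distal share with H3K4me1 was higher by 30.4 points, with the same p of 0.03125 by the exact permutation test. H3K27ac calls covered 96.0% to 97.4% of distal bases in WT, against 97.8% to 98.2% at promoter-proximal regions. In KO they covered 95.1% to 95.4%, against 97.1% to 97.7%. The share of regions that H3K27ac covered whole was higher at distal regions in WT, at 93.5% to 95.6% against 92.5% to 94.4%. In KO it overlapped, at 93.0% to 93.3% against 93.1% to 93.4%.

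Distal regions that overlapped H3K27me3, 823 in all, made up the second comparison group. The regions without H3K27me3 carried H3K27ac more often by 31.6 ± 3.65 percentage points and H3K9me3 more often by 1.5 ± 0.83 points, each higher in 6 of 6 libraries. They carried H3K4me1 less often, by a difference of -3.76 ± 1.03 points, lower in 6 of 6. All 3 had an exact permutation p of 0.03125 and an adjusted p of 0.0375. The groups were split by H3K27me3, a mark of the same lysine as H3K27ac, so the H3K27ac contrast was not independent of the split. H3K27me3-marked regions were of like width (median 409 bp) and fold (5.4) but of higher GC share (63.0%).

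**Figure D3:**
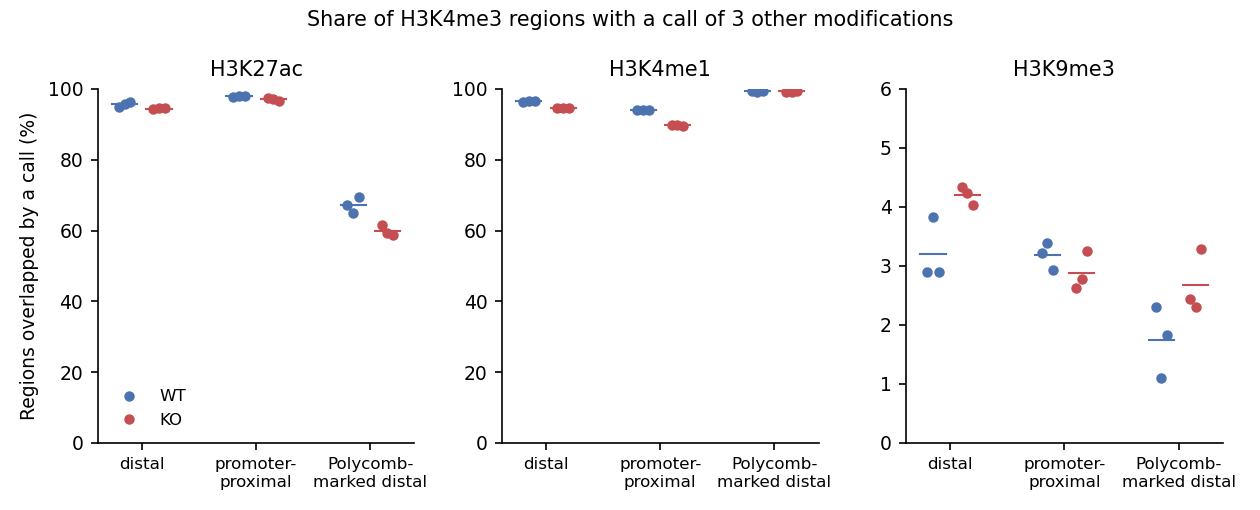
Share of regions overlapped by a call (%, y axis) of H3K27ac, H3K4me1 and H3K9me3 at distal, promoter-proximal and Polycomb-marked distal (overlapping H3K27me3) regions; points are libraries, lines are means of 3 WT (blue) or 3 KO (red) libraries, and the H3K9me3 axis ends at 6%. Distal regions lie at 94.3% to 96.4% for H3K27ac and 94.6% to 96.7% for H3K4me1, and the Polycomb-marked ones are lower in H3K27ac by 31.6 points on average.

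H3K9me3 was rare at distal regions. Calls overlapped 28, 37 and 28 regions in the WT libraries (2.9%, 3.8% and 2.9%), below the 7.4% of the autosomes in the WT consensus of the mark. Against promoter-proximal regions the difference was 0.67 ± 0.81 percentage points (SD over 6 libraries, higher in 4 of 6), and it did not pass the test (exact permutation p = 0.125). Of the 29 regions in the WT consensus of H3K9me3, 24 also carried H3K27ac. Foxk1, Scn3b and Zfp869 were the ones of highest fold with H3K9me3 in all 3 WT libraries. The Zfp869 region, beside a zinc finger gene, had H3K4me3 folds of 6.24, 7.31 and 10.2 in WT and 12.2, 11.4 and 12.6 in KO, each KO value above each WT value. It lies in the stretch of chromosome 8 with raised KO input. The Foxk1 and Scn3b regions had H3K9me3 in 1 and 0 KO libraries, respectively, and H3K27ac in all 6. The Zfp960 region, named by another zinc finger gene, had no H3K27ac call in any library, with H3K4me3 folds of 5.95, 6.20 and 7.21 in WT and 6.96 and 5.69 in KO replicates 1 and 3. The Zfp619 region carried H3K9me3 in all 6 libraries and H3K27ac in 3 WT and 2 KO libraries.

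Shares of distal regions with each mark differed little between genotypes. H3K27ac calls overlapped 94.3%, 94.5% and 94.5% in the KO libraries, a difference from WT of -1.28 percentage points, which was -1.96 without WT replicate 1. H3K4me1 calls overlapped 94.6% in each KO library (915 regions in each), a difference of -1.90 points, which was -3.00 without WT replicate 3 and -3.86 when a call had to cover at least 50% of a region. H3K9me3 calls overlapped 42, 41 and 39 regions in KO, a difference of 1.00 points, which was 0.456 outside the stretches of unequal input (exact permutation p = 0.4), 0.245 with protein-coding TSSs only (exact permutation p = 0.6) and 1.71 without WT replicate 1. Over the regions called, the median log2 ChIP over input of H3K27ac was 1.30, 1.35 and 1.32 in WT and 1.40, 1.37 and 1.36 in KO, each KO median above each WT median. The medians of H3K4me1 overlapped, with 1.36, 1.33 and 1.35 in WT and 1.30, 1.34 and 1.35 in KO, as did those of H3K9me3, with 1.46, 1.08 and 1.52 in WT and 1.20, 1.03 and 1.18 in KO. In the shares, for each mark the KO libraries did not overlap the WT libraries, and the two-sided exact permutation p was 0.1 (adjusted 0.1), the smallest that 3 against 3 libraries allow, so that none could pass 0.05. The other groups are given as a description. At promoter-proximal regions the KO minus WT differences were -0.87 (H3K27ac), -4.33 (H3K4me1) and -0.29 (H3K9me3) points. At H3K27me3-marked distal regions they were -7.25, -0.04 and 0.93 points. Falls in H3K27ac and H3K4me1 were thus not particular to distal regions. H3K27me3, which the rule excludes from the WT consensus, was called at 15, 25 and 33 distal regions in the WT libraries and at 64, 84 and 67 in the KO libraries. Its mean share was 2.52% in WT and 7.41% in KO. Promoter-proximal regions, chosen under the same exclusion, also had a higher share in KO, with means of 1.98% in WT and 3.90% in KO.

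Regions that switched a mark between all libraries of both genotypes were few. H3K27ac was called in 3 of 3 WT and 0 of 3 KO libraries at 4 regions (0.414%), against 1.28% of all 21921 stretches, and in the opposite pattern at 0, against 0.155%. They lay beside Gpx5, Virma, Hhipl1 and Dok5, and 2 of them lay in stretches of unequal input. H3K4me1 was called in WT alone at 4 regions (0.414%, against 0.538%), beside Sfmbt2, Katnal2, Epb41l2 and Dicer1, and in KO alone at 0 (against 0.0456%). H3K9me3 was called in WT alone at 2 regions (0.207%, against 0.283%), beside Scn3b and St6galnac3, and in KO alone at 14 (1.45%, against 0.160%). H3K9me3 in KO alone and H3K27me3 in KO alone were the patterns whose share lay above that of all stretches. These 14 H3K9me3 regions lay beside only 6 genes, with 5 beside Zfp42, 3 each beside Etl4 and Etv5 and 1 each beside Cdyl2, Fam25c and Morc3, and 6 of them lay in stretches of unequal input. H3K27me3 was called in KO alone at 18 (1.86%, against 0.401%), a count that the exclusion of WT H3K27me3 favours.

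Mean H3K4me3 folds at the named regions that switched another mark were mostly lower in KO than in WT. Those at Katnal2, St6galnac3 (4.01 in WT and 4.52 in KO) and Zfp42 were higher in KO. The WT H3K4me3 calls had chosen these regions, so the direction is a description only. The Gpx5 region, 746 bp in the tRNA-rich span of chromosome 13, had H3K4me3 folds of 4.78, 6.80 and 6.79 in WT and 5.62, 3.47 and 6.66 in KO, although its H3K27ac call was absent from all KO lists. The Hhipl1 region, in the stretch of chromosome 12 with lowered KO input, had WT folds of 4.31, 5.82 and 4.86 and no KO call. The Sfmbt2 region, beside a Polycomb-group gene and without H3K4me1 calls in KO, had folds of 7.04, 8.94 and 9.35 in WT and 5.97, 6.62 and 7.80 in KO. The Katnal2 region, also without H3K4me1 calls in KO, had a mean fold of 7.43 in WT and 8.93 in KO. At Etv5, an ETS family transcription factor gene, the highest region with H3K9me3 in KO alone had folds of 7.82 in each WT library and 5.94, 5.77 and 7.22 in KO, each below WT. At Morc3, which encodes a chromatin ATPase, the folds were 4.53, 6.33 and 5.83 in WT and 5.22, 4.29 and 6.03 in KO, and the genotypes overlapped. The Etv5 and Morc3 regions kept H3K27ac calls in all 6 libraries.

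KO lists called most distal regions. They kept 679 (70.2%), 749 (77.5%) and 757 (78.3%) of the 967, a mean of 75.3% ± 4.44 (SD, n = 3). All 3 KO lists called 591 (61.1%), against 81.5% of all 21921 stretches, and no KO list called 114 (11.8%), against 5.13%. The share kept was highest at high WT fold. In the lowest quartile of the regions by fold the KO lists kept 63.2%, 67.4% and 71.1% and in the next one much the same, 62.4%, 68.6% and 70.7%. In the quartile above these they kept 64.7%, 79.7% and 77.6%, and in the highest 90.5%, 94.2% and 93.8%. Of the 501 regions called by all 3 WT lists, 390 were called by all 3 KO lists and 16 by none. Regions with windows of CpG island composition were kept more often (90.1%, 94.1% and 92.1% of 101) than the other 866 (67.9%, 75.5% and 76.7%), and the 38 regions without H3K27ac less often (47.4%, 47.4% and 42.1%). The 101 regions also had the higher median WT fold, 6.44 against 5.17 for the other 866.

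The region of the highest fold among those that no KO list called lay 51133 bp from the TSS of Klf4, a transcription factor of naïve pluripotency. It spanned 359 bp at chr4:55480279-55480637, with WT folds of 5.82, 7.19 and 9.18. All 6 libraries of H3K27ac and all 6 of H3K4me1 had a call over it, with log2 ChIP over input of 2.28, 2.24 and 2.37 for H3K27ac in WT and 2.43, 2.53 and 2.48 in KO. The H3K4me3 peak at the promoter of Klf4 itself was called in all 6 lists. The next 5 such regions were called by 2 WT lists each. They lay beside Clstn3, Tbc1d7, Fzd2, Elmsan1 and Nxph1, and their mean WT folds were 6.24 to 6.60. The Fzd2 region, beside a Wnt receptor gene and shown above, had folds of 6.03 and 6.80 in WT replicates 1 and 3.

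The WT lists chose the regions, so a list that had no part in the choice was needed to read the share kept by KO. Distal regions were therefore chosen again on each pair of WT lists. The WT list left out called 70.2% to 87.1% of them (mean 78.5%), and the KO lists called 73.9% to 86.9% (mean 81.3%). KO lists thus kept as large a share as a further WT list did, but they also held more peaks (23137 to 26109, against 21283 to 23033). Shares at equal numbers of peaks were not computed for this choice or for the opposite one. The opposite choice was not symmetric: of distal regions chosen on 2 KO lists, the KO list left out called 69.3% to 84.1% (mean 78.8%), but the WT lists called 34.9% to 50.8% (mean 43.4%). At promoter-proximal regions the same figures were 94.3% and 96.0% for regions chosen in WT and 93.0% and 82.0% for regions chosen in KO.

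**Figure D4:**
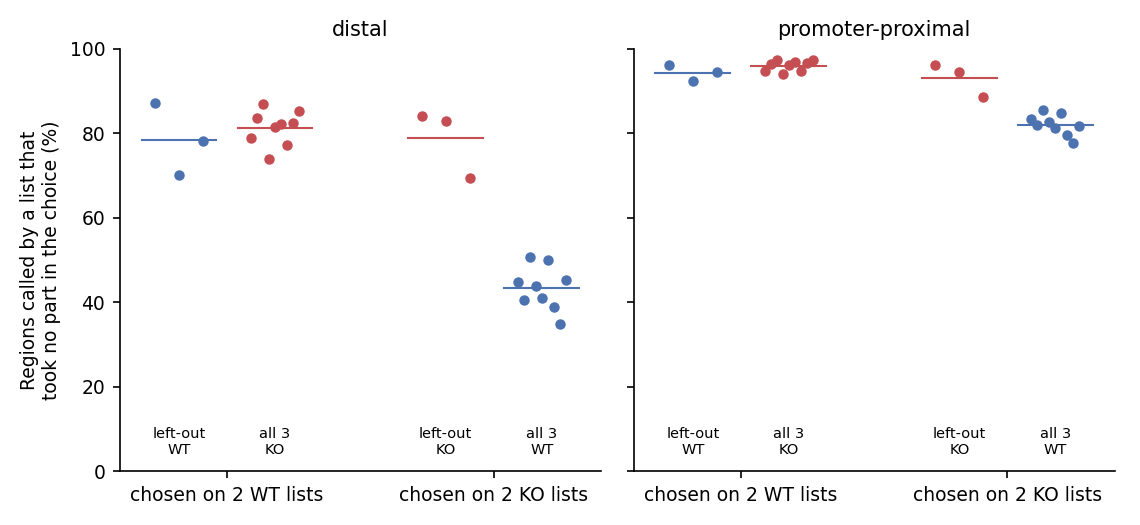
Share of regions (%, y axis) called by an H3K4me3 list that took no part in choosing them, for distal (left) and promoter-proximal (right) regions chosen on 2 WT or 2 KO lists; points are single lists (3 left-out lists of the same genotype, 9 readings by the 3 lists of the other genotype), blue for WT and red for KO, and lines are means. For distal regions chosen on 2 KO lists the WT lists call 34.9% to 50.8%, below every left-out KO list.

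A set whose H3K4me3 calls were pooled over both genotypes was described next. In such counts fewer cells with the mark and less mark per cell cannot be told apart. Applying the same limits, the exclusion by WT H3K27me3 included, to bases called by at least 2 of all 6 H3K4me3 lists gave 2387 distal regions. The WT lists called 871, 747 and 1087 of them and the KO lists 1495, 1840 and 1892. Every KO library was above every WT library, with a difference of 840.7 regions and a ratio of 1.93. These are descriptions with no test, because the calls that are counted also chose the regions. KO lists also held more peaks, 23137 to 26109 peaks against 21283 to 23033. Each library's own peaks were also sorted, and there a peak that overlapped the H3K27me3 consensus of either genotype counted as neither distal nor promoter-proximal. As a share of each library's own peaks, distal peaks made up 4.71%, 3.99% and 5.64% in WT and 7.34%, 9.53% and 9.88% in KO, a difference of 4.14 percentage points (exact permutation p = 0.1). The share of promoter-proximal peaks was 49.8% in WT and 50.2% in KO (exact permutation p = 0.8). With the same number of top-ranked peaks from each list the difference in distal calls was 420.7 regions, outside the stretches of unequal input it was 727.3, and with H3K27me3 of either genotype left out it was 832.0. At equal numbers of top-ranked peaks the distal share of own peaks was 4.32%, 4.03% and 4.91% in WT. It was 6.44%, 7.30% and 7.37% in KO, a smaller gap than with all peaks.

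**Figure D5:**
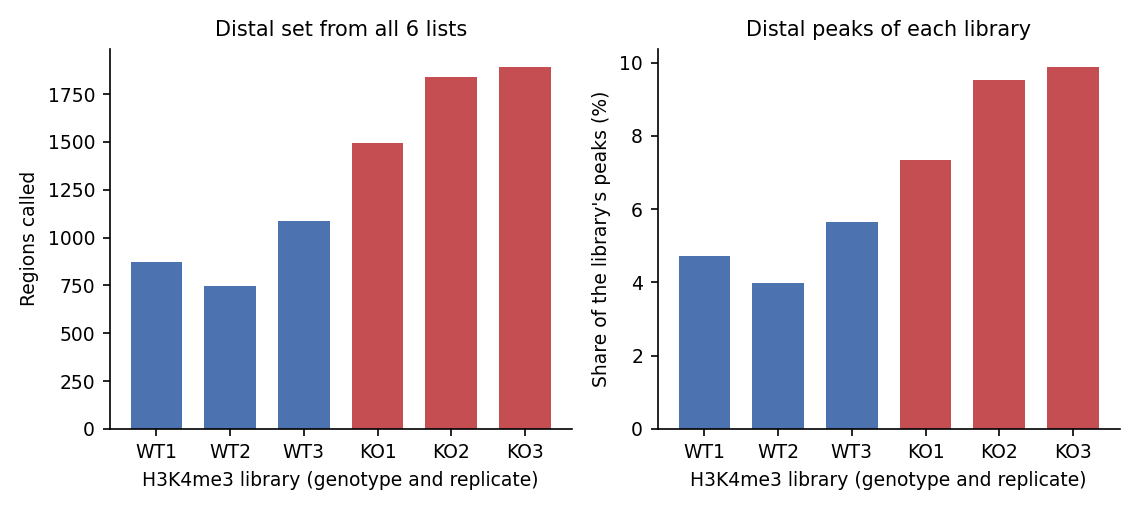
Left, number of the 2387 distal regions chosen on all 6 lists that each H3K4me3 library called; right, share of each library's own peaks that were distal (%). Bars are single libraries, WT in blue and KO in red; the 3 KO libraries (1495 to 1892 regions, 7.34% to 9.88%) lie above the 3 WT libraries (747 to 1087 regions, 3.99% to 5.64%) in both.

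Of the 2387 regions, 370 were called by all 6 lists, 114 by at least 2 WT lists and no KO list, and 1005 by at least 2 KO lists and no WT list. The 114 entered the set through WT calls alone and the 1005 through KO calls alone, so what follows is a description. Shares of such regions among all stretches pooled in the same way are not given here. These 1005 were narrow, with a median width of 261 bp, and none lay within 500 bp of a tRNA gene, against 5.43% of the other 1382. H3K27ac was called at 97.0% to 97.4% of them in the WT libraries and H3K4me1 at 97.9% to 98.1%, against 95.6% to 96.6% and 97.2% to 97.5% of the other 1382. H3K9me3 was called in WT at 6.67%, 6.97% and 5.77% of them, against 3.11%, 3.76% and 3.26% of the others. By the same rule the KO consensus held 1989 distal regions of 24300 stretches (8.19%), and the WT consensus 967 of 21921 (4.41%). In the other genotype's consensus lay 738 (76.3%) of the WT distal regions and 659 (33.1%) of the KO distal regions.

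Naïve pluripotency genes were the neighbours of 11 distal regions (1.14%), against 0.287% of all stretches, and these lay beside 5 of the 18 genes listed. At least 1 KO list called 10 of the 11 and all 3 called 7, close to the shares over all distal regions given above (114 of 967 by none and 61.1% by all 3). The 7 included all 5 regions in Zfp42, which were not independent, so these shares and the 1.14% count 1 locus 5 times. The region that no KO list called was that of Klf4. Beside Tet2, which oxidises methylated cytosine, the region 26562 bp into the gene (chr3:133517307-133517724) had folds of 3.72, 3.05 and 3.16 in WT and 11.5, 11.6 and 8.37 in KO. A second Tet2 region, 10337 bp from the TSS, had folds of 4.67, 4.65 and 5.40 in WT and 3.48 and 6.09 in KO replicates 1 and 3, where the genotypes overlapped. The region in Esrrb, an orphan nuclear receptor gene, had folds of 5.52 and 4.86 in WT replicates 1 and 3 and 6.17 and 4.35 in KO replicates 2 and 3. Both intergenic regions beside Prdm14, a PR domain regulator of naïve pluripotency, had mean folds of 4.22 and 4.19 in WT and 5.48 and 5.35 in KO.

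Zfp42, which encodes the zinc finger protein REX1, held 5 of the 11 regions inside the gene, 6166 to 10751 bp from its TSS. Their WT folds ranged from 2.72 to 5.61 and their KO folds from 6.17 to 11.3, without overlap. They were not independent, since the 5 regions fell within 2 or 3 peaks of each KO list. The same 5 regions carried H3K9me3 calls in all KO libraries and in none of WT, with log2 ChIP over input of 0.34 to 0.57. They lie in the stretch of chromosome 8 where KO input was raised, and the part of this stretch in their values was not tested.

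The other fixed gene lists had few or no distal regions, and few stretches of any kind. Core pluripotency, formative and primed, primitive endoderm and germline genes had none, and they were the neighbours of 0.0274% to 0.164% of all stretches. The shares of distal regions and of all stretches were 0.103% and 0.119% for the NF-κB and IκB list, 0.207% and 0.182% for the Polycomb list and 0.207% and 0.137% for the DNA methylation list. Relb, an NF-κB subunit, held the only region of the NF-κB and IκB list, with folds of 6.66, 5.50 and 7.58 in WT and 8.21, 8.25 and 7.83 in KO, each KO value above each WT value. Cbx7, a subunit of Polycomb repressive complex 1, held both regions of the Polycomb list, of which 1 was called by all 3 KO lists and 1 by none. The 2 regions of the DNA methylation list were those of Tet2.

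Read counts over the H3K27ac, H3K4me1 and H3K9me3 domains around distal regions were compared with the quasi-likelihood test of edgeR. For each mark, called regions of all 6 libraries were merged, and merged regions of like covered length in all libraries were tested. These were far wider than the distal regions, with a median of 74.8 kb for H3K27ac and 44.0 kb for H3K4me1 among those that held one, so that their counts describe neighbourhoods. Of 321 H3K27ac domains with a distal region, 148 were higher in KO (46.1%, against 26.4% of all 4054 tested) and 84 lower (26.2%, against 26.5%) at an adjusted p under 0.05. With library totals and no TMM scaling 103 were higher (32.1%) and 118 lower (36.8%), against 744 and 1479 of all 4054 tested. The direction of the majority among domains with a distal region thus depends on the scaling. Of the 34 H3K27ac domains that held no TSS, 10 were higher (29.4%) and 9 lower (26.5%). Of 467 H3K4me1 domains, 114 were higher (24.4%, against 23.4% of 10959) and 158 lower (33.8%, against 20.0%). Without TMM scaling these became 77 and 243, against 1776 and 3584 of all 10959. Without the limit on covered length 161 of 674 were higher and 74 lower, against 6269 and 4070 of all 44625. Of 6 H3K9me3 domains, 1 was higher and 1 lower (background 6.88% and 7.62% of 3098).

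The largest rises lay in 1 stretch of chromosome 8. H3K27ac domains with the largest rises held Jund, an AP-1 subunit gene, at a log2 fold change of 0.82 ± 0.018 (SE), Zswim4 at 0.75 ± 0.017 and Psmd7, a proteasome subunit gene, at 0.74 ± 0.036, with edgeR adjusted p-values of 1.12e-19 to 3.23e-13. H3K4me1 domains with the largest rises held Gab1 at 0.74, Fbxo31 at 0.71 and Gpt2 at 0.68. All 6 lie where KO input was raised by 0.51 on the log2 scale. The largest fall of both marks was at Ppp2r5c, a regulatory subunit of protein phosphatase 2A, with log2 fold changes of -0.87 for H3K27ac and -1.0 for H3K4me1. It lies in a stretch of chromosome 12 where the log2 ratio of KO to WT input was -0.92. The part of the input in these values was not tested, and an unequal number of copies cannot be told apart from a change of the mark.

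Outside those stretches the named changes were smaller. With the stretches left out, 137 of 307 H3K27ac domains with a distal region were higher in KO (44.6%) and 78 lower (25.4%). Of all 3980 tested, 1040 were higher and 1023 lower. For H3K4me1, 84 of 435 were higher (19.3%) and 140 lower (32.2%), against 2353 and 1999 of all 10637. The H3K27ac and H3K4me1 domains named here were falls, because the largest rises lay inside the stretches. The H3K27ac domain at Lgi1 had 448, 437 and 443 CPM (reads scaled to the TMM-adjusted library total) in WT and 333, 315 and 335 in KO, a log2 fold change of -0.44 ± 0.029 (edgeR adjusted p = 6.42e-11). The domain at Zfp213, which held 2 distal regions, had a log2 fold change of -0.41. For H3K4me1 the domain at C77080 fell by 0.37 on the log2 scale, and a 4400 bp domain beside Ripk2, a kinase of NOD receptor signalling, which held no TSS, had 16.76, 17.60 and 16.72 CPM in WT and 13.21, 11.97 and 13.32 in KO (log2 fold change -0.41 ± 0.074, edgeR adjusted p = 3.35e-05). For H3K9me3 the domain beside Ccr1, which held 3 distal regions, rose by 0.15 and that beside Cenpv fell by 0.33 on the log2 scale.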

How the data were processed

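ChIP-seq of 5 histone modifications in 3 IκBα-WT and 3 IκBα-KO clones was analysed from the peak lists that the authors deposited for each library. The authors trimmed 50 bp single-end reads (Trim Galore 0.6.6), aligned them to GRCm38 (Bowtie2 2.4.4; for H3K27ac the aligner is not given in the sources used here) and called regions against the input of the genotype at a false discovery rate under 0.05. The H3K4me3 lists came from MACS2 2.2.7.1, whose deposited values are the fold (ratio) over input at the summit, −log10 p and q values and a score. The lists of the other modifications came from epic2 (named SICER 0.0.52 in the submitters' processing notes), with deposited ChIP and input read counts, p-values, a log2 ratio of ChIP over input and a score for each region. For H3K9me3 the methods are not given in the sources used here. H3K4me3 lists gave no read counts and held 21283 to 26109 peaks; the library depths that the study states were not used here. ChIP reads inside called regions were 22753066 to 28105919 per H3K27ac library, 34485130 to 35688997 for H3K4me1 and 8048837 to 11248081 for H3K9me3.

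WT and KO groups followed the genotype labels, and replicates were independent clones. Overlap of at least 1 bp counted as a call. Shares were compared over libraries by exact permutation tests. The study's own comparison of read counts needs alignments and was not repeated. Read counts were summed over merged regions whose covered length agreed between libraries (lowest to highest at least 0.8) and tested with edgeR 4.0.16 (quasi-likelihood, TMM, Benjamini-Hochberg over all merged regions). Its recovery of changed regions was tested on simulated data. Stretches of unequal input (chromosomes 2, 8 and 12; 89 distal regions) were found from input counts. Sequences and tRNA genes are those of GRCm38 and its RefSeq annotation, and TSSs those of GENCODE M21. Regions were named by the nearest protein-coding TSS: the 8 of highest mean WT fold, the 4 widest, the 6 of highest fold called by no KO list, the 5 of highest fold with H3K9me3, up to 3 per direction for calls restricted to 1 genotype and for read counts, and those beside fixed gene lists; Dok5, Dicer1, Etl4, Cdyl2 and Fam25c were named after their values were seen, and the windows to print were also picked then. The regions and lists were chosen with earlier results of these data known.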

Additional observations from a re-analysis of the deposited data

How the results depend on the processing

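Alternatives tried were a 50% overlap, a threshold of 0.01, regions from 3 of 3 WT lists, equal numbers of top-ranked calls, a distance of 10000 bp, protein-coding TSSs, leaving out the stretches of unequal input, each replicate left out and, for read counts, DESeq2, other scaling, filter and length limits. RefSeq starts, regions at least as wide as the narrowest peak, H3K27me3 of either genotype and the share of own peaks were chosen after seeing the data. The share of distal regions kept by KO lists (75.3%) was 69.3% with the 50% overlap, 86.1% with 3 of 3 WT lists, 70.4% with top-ranked calls and 73.8% to 82.8% with a replicate left out (81.2% without WT replicate 1 and 82.8% without WT replicate 3). The difference in H3K27ac share between genotypes turned to 0.0381 with top-ranked calls (exact permutation p = 1). With a replicate left out the genotype differences ranged from -1.96 to -1.21 (H3K27ac), -3.00 to -1.90 (H3K4me1) and 0.867 to 1.71 (H3K9me3) points. The H3K9me3 share exceeded that of promoter-proximal regions by 1.32 points with top-ranked calls, 2.05 with protein-coding TSSs and 1.17 with regions as wide as the narrowest peak, each with an exact permutation adjusted p of 0.03125. With 1 library left out the smallest p of the sign-flip tests is 0.0625, so every such call was lost by construction; the differences from promoter-proximal regions then ranged from -2.84 to -2.29 (H3K27ac) and 3.33 to 5.87 (H3K4me1) and from 0.467 to 1.26 (H3K9me3), those from H3K27me3-marked regions from 30.8 to 33.9 (H3K27ac), -5.56 to -3.56 (H3K4me1) and 1.17 to 2.53 (H3K9me3). DESeq2 called 140 higher and 72 lower H3K27ac domains, against 1000 and 908 of all 4054 tested. It called 94 higher and 124 lower H3K4me1 domains, against 2060 and 1498 of all 10959. The number of called domains was 19 for H3K27ac (10 higher, 9 lower) and 69 for H3K4me1 (21 higher, 48 lower) among those without a TSS (fewer domains), and 13 for H3K9me3 with no length limit. The genotype difference in distal calls ranged from 420.7 to 1089.7 regions over the alternatives, with KO higher throughout; regions from 3 of 3 WT lists could not be applied to it.

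Replicate numbers did not pair the libraries, as the deviations of same-numbered WT and KO libraries correlated between -0.083 and 0.032. With a replicate block the genotype difference in distal calls stayed at 840.7, that in the distal share of own peaks at 4.14 with an exact permutation p of 0.25, the smallest that 3 pairs allow, and called domains changed from 232 to 228 (H3K27ac) and from 272 to 271 (H3K4me1).

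A main limit is that peak lists give no H3K4me3 reads between peaks, so a region missed is not shown to lack the mark. The others are that each genotype has 1 input per experiment, and that an exact permutation test of 3 libraries against 3 cannot reach a p under 0.1. At the depth of these lists regions of low fold were called less evenly even among WT libraries.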
